A study of Mus musculus with 4 samples.

Results

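The fatty acid desaturases and elongases of the mouse were followed here through 10 genes, namely Scd1, Scd2, Scd3, Fads1, Fads2, Fads3, Elovl1, Elovl5, Elovl6 and Elovl7. They were chosen by gene symbol. All 10 were among the 15500 genes of the expression table, and 9 of them had a mean of at least 1 FPKM, as did 10355 of all genes. FPKM is a fragment count scaled to transcript length and to library size, so that levels of different genes can be compared per length. Scd3 was the member under that minimum.

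The RNA was labelled as liver of male Kunming mice, an outbred stock, that were 5 weeks old when bought and were kept for 1 week before the diets began. Each diet lasted 28 days and each group had 6 mice. The Vehicle group ate chow with 1.5% linoleic acid, the CLA group ate chow with 1.5% conjugated linoleic acid in its place, the GW6471 group ate the linoleic acid diet and received GW6471 at 20 mg/kg each day by intraperitoneal injection, and the CLA+GW6471 group received the conjugated linoleic acid diet and the same injections. GW6471 is an antagonist of the nuclear receptor PPARα, which turns on genes of fatty acid oxidation in liver. All 4 groups thus carried an added octadecadienoic acid, so that no group ate plain chow. There was 1 library per condition, and whether it came from 1 mouse or from a pool was not given in the sources used here, so no difference below has a replicate check and no p-value is given.

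Desaturases place double bonds into fatty acyl chains, and elongases lengthen the chains in the endoplasmic reticulum. The Scd enzymes turn saturated stearate and palmitate into the monounsaturated oleate and palmitoleate, which liver packs into triglycerides and phospholipids. Fads2, Elovl5 and Fads1 act in turn on dietary linoleate to give arachidonate. The transcription factor SREBP-1c, the oxysterol receptor LXR and PPARα are between them known to raise Scd1, Fads1, Fads2, Elovl5 and Elovl6 in liver, and polyunsaturated fatty acids are known to lower them through SREBP-1c.

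Upstream sequence is shown for the 4 members whose results are described most closely below and for which an entry was at hand. RefSeq entries (table of assembly GRCm38.p6) were found for 7 of the 10 members, and each stretch of 250 bases before the annotated start was located in mm9, the build the submitters named, by an exact match found at a single place on its chromosome. Capitals mark matches, on either strand, to CCAAT (the NF-Y motif), CACGTG (an E-box) or AGGTCA (a nuclear receptor motif). The Fads2 stretch lies at chr19:10175994-10176243 on the minus strand, the Fads3 stretch at chr19:10115788-10116037 on the plus strand, the Elovl5 stretch at chr9:77764922-77765171 on the plus strand and the Elovl6 stretch at chr3:129235054-129235303 on the plus strand. Each is printed from 5′ to 3′ on the gene's own strand.
Fads2: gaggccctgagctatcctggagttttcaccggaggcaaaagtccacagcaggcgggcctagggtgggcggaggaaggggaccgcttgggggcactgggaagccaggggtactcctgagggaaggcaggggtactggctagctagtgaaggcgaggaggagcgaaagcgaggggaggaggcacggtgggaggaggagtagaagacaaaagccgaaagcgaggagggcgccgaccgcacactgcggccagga
Fads3: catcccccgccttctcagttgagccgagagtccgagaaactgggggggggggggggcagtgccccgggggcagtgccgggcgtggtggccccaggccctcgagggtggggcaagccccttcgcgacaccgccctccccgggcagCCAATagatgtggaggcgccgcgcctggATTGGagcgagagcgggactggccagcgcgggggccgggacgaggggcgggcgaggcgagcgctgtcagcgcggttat
Elovl5: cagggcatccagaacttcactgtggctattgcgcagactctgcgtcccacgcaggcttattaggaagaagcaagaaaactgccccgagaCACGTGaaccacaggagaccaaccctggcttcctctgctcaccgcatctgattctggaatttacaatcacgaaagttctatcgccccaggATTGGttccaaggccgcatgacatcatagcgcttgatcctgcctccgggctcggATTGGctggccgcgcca
Elovl6: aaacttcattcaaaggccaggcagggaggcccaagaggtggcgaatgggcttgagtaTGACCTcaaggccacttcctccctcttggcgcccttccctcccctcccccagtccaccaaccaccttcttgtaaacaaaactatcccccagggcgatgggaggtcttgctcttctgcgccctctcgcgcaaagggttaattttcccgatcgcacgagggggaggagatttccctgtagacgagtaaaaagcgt

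The Fads2 stretch held none of the motifs searched. The Fads3 stretch held CCAAT at 106 to 102 bases before the start and again, on the other strand, at 78 to 74 bases. CCAAT was found in 33.8% of all 32817 promoter entries of this length. In the Elovl5 stretch CCAAT stood on the other strand at 71 to 67 and at 17 to 13 bases before the start, and CACGTG, held by 6.02% of entries, stood at 161 to 156 bases. The Elovl6 stretch held AGGTCA on the other strand at 193 to 188 bases, a motif found in 14.0% of entries. TCACCCCAC, a core of the sterol regulatory element, was searched as well and was found in 0.497% of entries and in none of these 4, while its part TCACCC, found in 13.8% of entries, stood only in the stretches of Elovl7 and Scd3 among the members. Paired AGGTCA motifs spaced by 1 base or by 4 bases stood in 0.0335% and 0.0152% of entries and in no member entry. A match is a run of letters and not a mapped binding site.

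The libraries were of like size. From the steps between the lowest FPKM values of short genes, the depth behind the Vehicle, CLA, GW6471 and CLA+GW6471 values was estimated at 18880000, 18800000, 19080000 and 19280000 reads. The counting intervals below rest on these estimates and cover counting error only, not the spread between mice. Over all genes, the median absolute log2 ratio between libraries was lowest for Vehicle and CLA+GW6471, at 0.093, and highest for CLA and CLA+GW6471, at 0.25. Between CLA and GW6471 it was 0.159, and between Vehicle and GW6471 it was 0.165. The CLA library thus lay nearest to GW6471, but over all genes GW6471 lay almost as near to Vehicle as to CLA. Whether any library labels were exchanged was not tested, and every ratio that involves GW6471 rests on the labels as given. The labelled tissue was also checked against markers of its cells. Of 16 hepatocyte markers, 14 were listed, 4 had a mean of at least 1 FPKM and 7 were under 1 FPKM in every library. Among these 7, Ttr and Apoh were at 0 in some libraries and at most 0.04 FPKM in any. Cps1 was at most 0.03 FPKM and Cyp2e1 at most 0.1 FPKM. The summed FPKM of the listed hepatocyte markers was 965.9 in the Vehicle library, 1841 with CLA, 1496 with GW6471 and 899.5 with both agents. Alb, which encodes albumin, stood at 680 FPKM in the Vehicle library, and the highest gene there was Sprr1a, a cornified envelope protein of squamous epithelia, at 19046 FPKM. The levels below are therefore those of the RNA labelled as liver. In bulk RNA, fewer cells of a type and less RNA per cell cannot be told apart.

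Scd2 had the highest mean level of the members, 288 FPKM, followed by Scd1 at 119, Elovl1 at 71.2, Fads3 at 64.3, Fads1 at 56.3, Fads2 at 55.8, Elovl5 at 28.8, Elovl6 at 13.3, Elovl7 at 10.95 and Scd3 at 0.045 FPKM. With 1 library per condition the order of neighbours can be read only within a library. Fads2 and Fads3 changed places: in the Vehicle library Fads2 stood below Fads3, Elovl1 and Fads1, and in the CLA library it stood above all 3, with Fads3 the lowest of these 4. Scd2 was above Scd1 in each library.

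**Figure D1:**
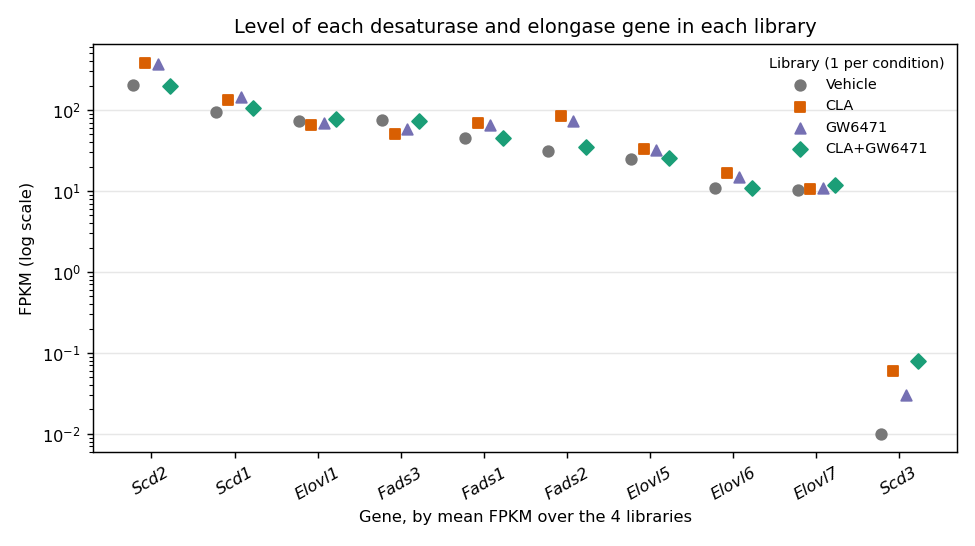
FPKM on a log axis for each gene, ordered by its mean over the 4 libraries, with 1 point per library. Scd2 lies highest in every library, Scd3 lies below 0.1 FPKM, and for Scd2, Scd1, Fads1, Fads2, Elovl5 and Elovl6 the CLA and GW6471 points lie above the other pair, while for Fads3 and Elovl1 they lie below it.

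Scd1, Scd2, Fads1, Fads2, Elovl5 and Elovl6 were higher in the CLA library and in the GW6471 library than in Vehicle, by 1.32-fold to 2.67-fold, and came back to between 0.98-fold and 1.14-fold of Vehicle where both agents were given. Fads3 was lower with either single agent, by 1.51-fold and 1.31-fold, and close to Vehicle with both. Elovl1 was lower with them as well, but by at most 1.14-fold, and passed no call. Elovl7 differed little between libraries, and Scd3 was close to the detection limit.

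The stearoyl-CoA desaturases are described first. Scd2, the main form in brain, stood at 201.8 FPKM in the Vehicle library, 385.81 with CLA, 366.29 with GW6471 and 197.4 with both agents. The CLA and GW6471 libraries were high and lay near each other, and the other pair was low. The log2 ratio of CLA to Vehicle was 0.93 (95% counting interval 0.91 to 0.96), a 1.91-fold higher level, and that of GW6471 to Vehicle was 0.86, or 1.82-fold.

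Scd1, the main hepatic form and the usual readout of SREBP-1c and LXR activity, stood at 93.36 FPKM in the Vehicle library, 132.11 with CLA, 142.89 with GW6471 and 106.67 with both agents. The GW6471 library was the highest, and CLA+GW6471 lay between Vehicle and the single agents. The log2 ratio was 0.50 for CLA to Vehicle (0.46 to 0.54), a 1.42-fold level, and 0.61 for GW6471 to Vehicle, a 1.53-fold level. Scd2 exceeded Scd1 by a factor of 2.16 in the Vehicle library, 2.92 with CLA, 2.56 with GW6471 and 1.85 with both agents, whereas adult mouse liver is known to hold more Scd1 than Scd2.

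Scd3, a form known from sebaceous glands of skin, was listed at 0.01, 0.06, 0.03 and 0.08 FPKM in Vehicle, CLA, GW6471 and CLA+GW6471, an estimated 1, 4, 2 and 5 reads. Its levels could not be told apart at this depth, and no fold is given. Scd1, Scd2 and Scd3 lie in 1 cluster on chromosome 19 of mm9, Scd3 at chr19:44277759-44318506 and Scd2 at chr19:44368166-44381354 on the plus strand and Scd1 at chr19:44468941-44482199 on the minus strand, with Scd4 between the latter pair. Their coding sequences were alike, at 90.4% identity between Scd1 and Scd2 and 91.5% between Scd1 and Scd3. Of all 50-base windows, 4.66% of Scd1, 3.79% of Scd2 and 6.63% of Scd3 also occurred in another gene, the share being highest for Scd3. Scd4 itself was at 0.22, 0.19, 0.18 and 0.27 FPKM in the same order of libraries.

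The Fads desaturases gave the widest range. Fads2, which performs the first desaturation of linoleate, stood at 31.46 FPKM in the Vehicle library, 83.97 with CLA, 72.56 with GW6471 and 35.1 with both agents. Both single agents were more than double the Vehicle level, and the library with both agents stood close to Vehicle. The log2 ratio of CLA to Vehicle was 1.41 (1.30 to 1.53), or 2.67-fold, and that of GW6471 to Vehicle was 1.20 (1.09 to 1.32), or 2.31-fold. Among the members with a mean of at least 1 FPKM, Fads2 had the highest ratio in both comparisons, ranked 49 and 33 among the 10355 genes.

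Fads1, which makes arachidonate from the elongated product of Fads2, stood at 45.4 FPKM in the Vehicle library, 68.48 with CLA, 65.4 with GW6471 and 45.76 with both agents. It followed the order of Fads2 with a smaller range. Its log2 ratio was 0.59 for CLA to Vehicle (0.53 to 0.66), or 1.51-fold, and 0.53 for GW6471 to Vehicle, or 1.44-fold.

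Fads3, a relative that acts on trans-vaccenate and on sphingoid bases, ran the other way, at 75.62 FPKM in the Vehicle library, 49.95 with CLA, 57.73 with GW6471 and 73.96 with both agents. The single agents were low and the other pair high. The log2 ratio of CLA to Vehicle was -0.60 (-0.66 to -0.53), a 1.51-fold lower level, and that of GW6471 was -0.39, a 1.31-fold lower level.

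Within the Fads family the balance of Fads2 to Fads3 turned over. Fads2 was 0.416 times Fads3 in the Vehicle library, 1.68 times with CLA, 1.26 times with GW6471 and 0.475 times with both agents. As a share of the summed FPKM of the family, Fads2 made up 20.6%, 41.5%, 37.1% and 22.7% in these libraries, and Fads3 49.6%, 24.7%, 29.5% and 47.8%. The genes are neighbours on chromosome 19 of mm9, with Fads3 at chr19:10116038-10134161 on the plus strand, Fads2 at chr19:10138654-10175993 on the minus strand and Fads1 at chr19:10257378-10271360 on the plus strand. The ends of Fads3 and Fads2 are 4492 bases apart, and the pair that lay closest moved in opposite directions. Fads2 and Fads3 were 71.1% identical over their coding sequences, and only 0.343% of the 50-base windows of Fads2 and 0.155% of those of Fads3 occurred in another gene.

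Of the 4 elongases, only Elovl6 passed 1.5-fold against Vehicle, and only with CLA. Elovl6, which takes palmitate to stearate, stood at 10.78 FPKM in the Vehicle library, 16.54 with CLA, 14.9 with GW6471 and 10.82 with both agents. The single agents were high and the other pair nearly equal. The log2 ratio was 0.61 for CLA to Vehicle (0.51 to 0.72), or 1.53-fold, and 0.46 for GW6471 to Vehicle, or 1.38-fold.

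Elovl5, which lengthens the product of Fads2, stood at 24.49 FPKM in the Vehicle library, 32.96 with CLA, 32.25 with GW6471 and 25.35 with both agents. It showed the order of Elovl6 at smaller size, with log2 ratios of 0.43 (0.32 to 0.53) for CLA and 0.40 for GW6471 to Vehicle, both under 1.5-fold.

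Elovl1, which makes very long saturated chains for sphingolipids, stood at 73.97, 64.8, 68.9 and 76.98 FPKM in Vehicle, CLA, GW6471 and CLA+GW6471. Its log2 ratio of CLA to Vehicle was -0.19 (-0.27 to -0.11). Elovl7, which also acts on saturated chains, stood at 10.32, 10.71, 10.99 and 11.78 FPKM, and its log2 ratio of CLA to Vehicle, 0.05, had a counting interval from -0.07 to 0.18 that spanned 0. These 4 genes lie on 4 chromosomes in mm9, Elovl1 at chr4:118100698-118105558, Elovl5 at chr9:77765171-77832326, Elovl6 at chr3:129235304-129341413 and Elovl7 at chr13:109004598-109077299, all on the plus strand, and at most 0.779% of the 50-base windows of any of them occurred in another gene.

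**Figure D2:**
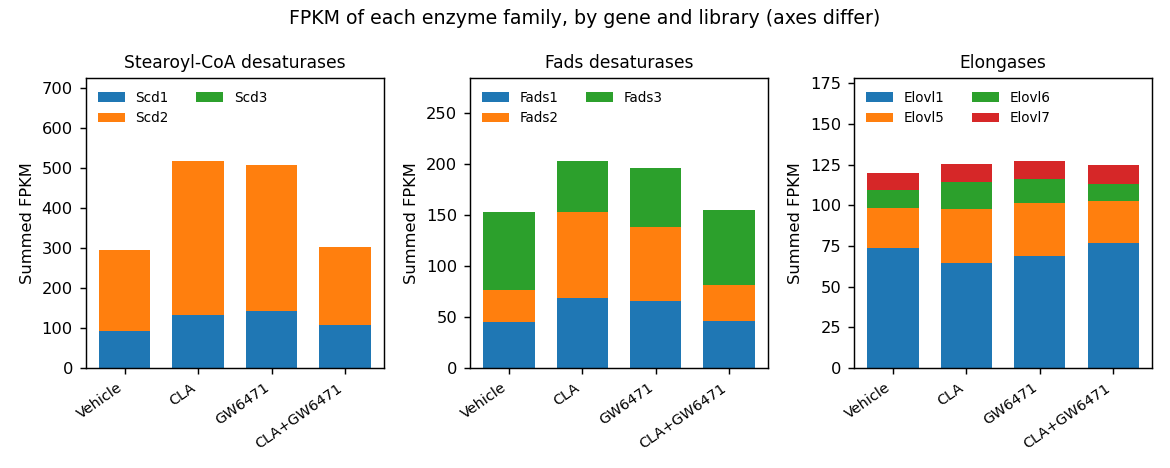
Summed FPKM of the Scd, Fads and Elovl members in each library, stacked by gene, with a separate vertical axis from 0 for each family. The Scd sum is 295 FPKM in Vehicle and 518 in CLA, the Fads sum 152 and 202, and the Elovl sum 120 and 125.

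Summed over members, the Scd genes gave 295 FPKM in the Vehicle library, 518 with CLA, 509 with GW6471 and 304 with both agents. The Fads genes gave 152, 202, 196 and 155 FPKM, and the Elovl genes 120, 125, 127 and 125 FPKM. The CLA to Vehicle ratio of the sum was thus 1.75 for Scd, 1.33 for Fads and 1.05 for Elovl. Elovl1 made up 61.9% of the Elovl sum in Vehicle.

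The comparison of CLA with Vehicle asked what conjugated in place of unconjugated linoleic acid did. Of the 9 members with a mean of at least 1 FPKM, Scd2, Fads1, Fads2 and Elovl6 were at least 1.5-fold higher in CLA, 4 in all, where 7.3% of all genes were. Fads1 and Elovl6 lay just past that limit, and 2 members, Scd2 and Fads2, remained with a pseudocount of 1 or with libraries scaled to the same FPKM sum. Fads3 was the 1 member at least 1.5-fold lower, where 4.95% of all genes were. The members' median log2 ratio was 0.50 and that of all genes -0.007. At 2-fold, Fads2 alone passed, higher, against 1.79% of all genes, and no member was lower, against 0.744%. The summed hepatocyte markers moved with the members, and their part in these ratios was not tested.

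The comparison of GW6471 with Vehicle, which uses the same Vehicle library, asked what the antagonist did on the linoleic acid diet. Scd1, Scd2 and Fads2, 3 members, were at least 1.5-fold higher, where 3.28% of all genes were, and 0 members were lower, where 2.1% were. The median log2 ratio was 0.46 for the members and -0.004 for all genes. At 2-fold, Fads2 was higher, against 0.56% of all genes, and no member was lower, against 0.309%.

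**Figure D3:**
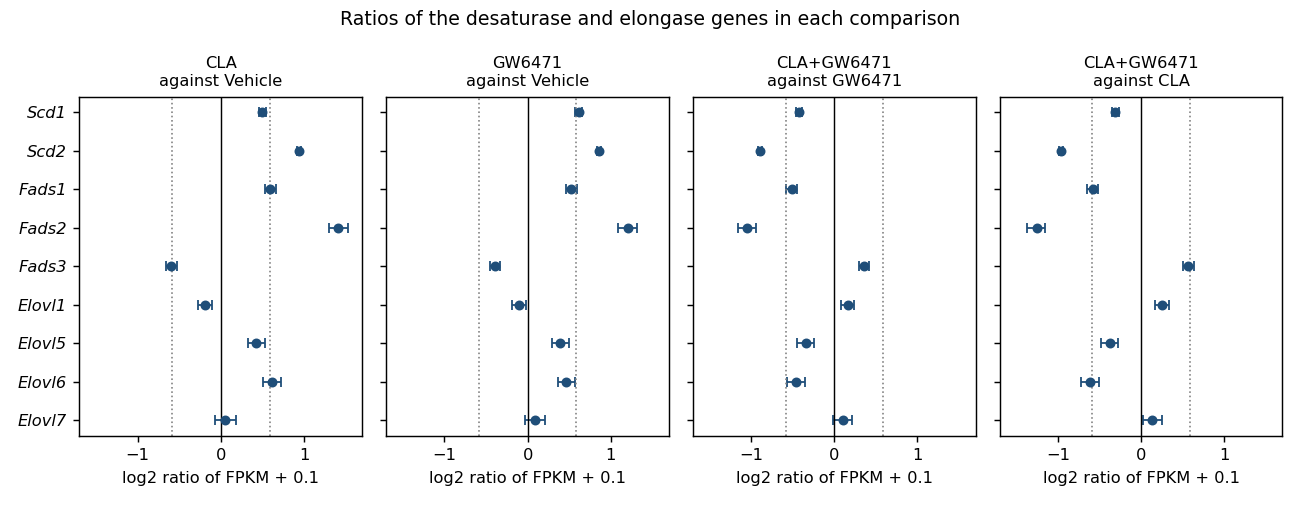
Log2 ratios of FPKM plus 0.1 for 9 members in the 4 comparisons, with points for the ratio, bars for the 95% counting interval and dotted lines at 1.5-fold. Fads2 lies at 1.41 and 1.20 in the CLA and GW6471 comparisons with Vehicle and at -1.05 and -1.26 in the comparisons of CLA+GW6471 with GW6471 and with CLA.

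The next comparison asked what the conjugated diet did where GW6471 was given. In CLA+GW6471 against GW6471, the log2 ratio was -0.89 for Scd2 and -1.05 for Fads2, which were 1.86-fold and 2.07-fold lower. These were the 2 members at least 1.5-fold lower, where 3.88% of all genes were, and no member was higher, where 2.81% were. Scd1 at -0.42, Fads1 at -0.51, Elovl5 at -0.35 and Elovl6 at -0.46 were lower by less than 1.5-fold, and Fads3 at 0.36 and Elovl1 at 0.16 were above 0. At 2-fold, Fads2 was lower, against 0.802% of all genes, and no member was higher, against 0.357%. The members' median was -0.42 and that of all genes 0.004.

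In CLA+GW6471 against CLA, which asks what the antagonist did on the conjugated diet and uses the same CLA+GW6471 library, Scd2, Fads2 and Elovl6 were lower by 1.95-fold, 2.39-fold and 1.53-fold. These 3 members compare with 9.15% of all genes lower by at least 1.5-fold, and 0 members were higher, against 6.84%. Fads1, with a log2 ratio of -0.58, and Fads3, with 0.57, lay just short of 1.5-fold, and Elovl6 was no longer past it with a pseudocount of 1. At 2-fold, Fads2 was lower, against 2.67% of all genes, and no member was higher, against 1.27%. The median log2 ratio was -0.38 for the members and 0.009 for all genes.

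CLA against Vehicle and CLA+GW6471 against GW6471 share no library and give the ratio of the conjugated to the unconjugated diet without and with the antagonist. For 8 of the 9 members the signs of these ratios were opposite, Elovl7 being the exception. Opposite signs were found for 73.0% of all 10355 genes too, so the reversal was no property of these enzymes alone. If the ratios of the single agents to Vehicle had multiplied, Fads2 would have stood at 194 FPKM in CLA+GW6471 and Scd2 at 700.3 FPKM, where 35.1 and 197.4 were measured. For Fads3 the product would have been 38.1 FPKM, against 73.96 measured.

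**Figure D4:**
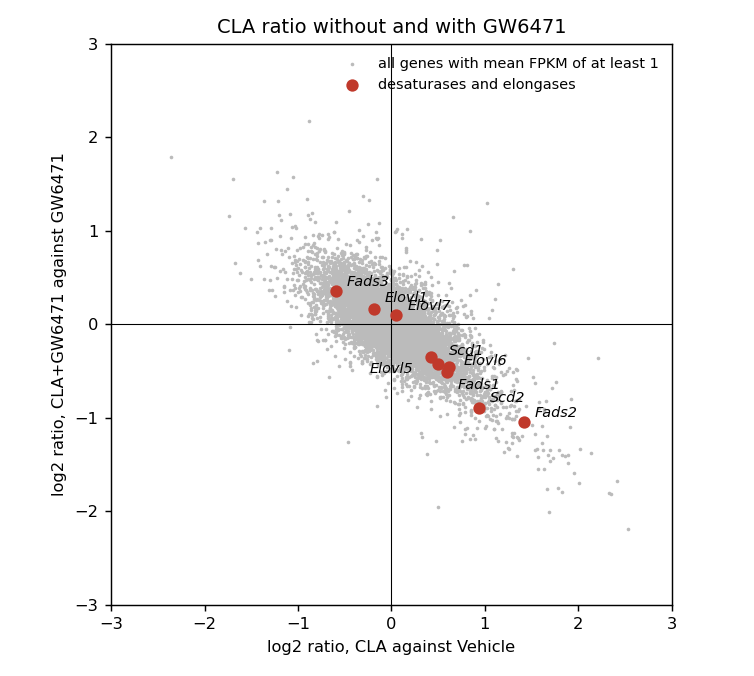
Log2 ratio of CLA to Vehicle against log2 ratio of CLA+GW6471 to GW6471, with 1 grey point for each gene of at least 1 mean FPKM and red points for 9 members (2 genes lie outside the axes). Red points for 6 members lie at lower right, led by Fads2 at 1.41 and -1.05, Fads3 and Elovl1 lie at upper left, and the grey points run along the same diagonal.

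Vehicle and CLA+GW6471 lay closer to each other in the members than in genes at large, as did CLA and GW6471. Between Vehicle and CLA+GW6471 the median absolute log2 ratio was 0.050 over the members, the largest being 0.19, and 0.093 over all genes. Between CLA and GW6471 it was 0.088 over the members, the largest being 0.21, and 0.16 over all genes. Between Vehicle and CLA, in contrast, it was 0.59 over the members and 0.23 over all genes.

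The enzymes and regulators around the members were read from lists of their genes. Counts are of genes past 1.5-fold with a mean of at least 1 FPKM, against Vehicle unless stated. In the elongation cycle, whose other steps reduce and dehydrate the lengthened chain, 2 of 6 genes were at least 1.5-fold higher with CLA and likewise with GW6471, and none was lower, where 7.3% and 3.28% of all genes were higher and 4.95% and 2.1% lower. Tecr, the enoyl reductase of the cycle, stood at 121.89 FPKM in the Vehicle library, 219.6 with CLA, 183.68 with GW6471 and 110.65 with both agents. The dehydratase gene listed as Ptplad2 (now Hacd4) stood at 0.7, 2.79, 1.97 and 0.68 FPKM, a low level. Ptplad2 passed the minimum mean of 1 FPKM only through the single-agent libraries, so the filter favoured its part in the count. Both genes were high with CLA and with GW6471 and low in the other pair of libraries, as was Fads2.

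Of 5 measured genes for the electron donors of the desaturases, 1 was higher and 1 lower in CLA than in Vehicle, and none passed 1.5-fold in GW6471. The shares over the whole table were 7.3% higher with 4.95% lower for CLA, and 3.28% with 2.1% for GW6471. Cyb5 (cytochrome b5, now Cyb5a), which passes electrons to the desaturases, stood at 72.87 FPKM in the Vehicle library, 113.72 with CLA, 80.31 with GW6471 and 57.77 with both agents. Cyb5r1, a reductase of the cytochrome b5 family, stood at 133.75, 69.62, 99.48 and 134.13 FPKM, lowest with CLA, as was Fads3.

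Fatty acid synthesis enzymes, which make the palmitate that Elovl6 and Scd1 work on, were higher in CLA for 3 of 7 genes, lower for none, with a median log2 ratio of 0.57, where 7.3% of all genes were higher and 4.95% lower. Acss2, which makes acetyl-CoA from acetate, stood at 2.38, 7.08, 5.64 and 2.45 FPKM in Vehicle, CLA, GW6471 and CLA+GW6471. Fasn, the fatty acid synthase, stood at 32.01, 52.43, 40.69 and 27.07 FPKM, and Acly, the citrate lyase, at 45.43, 70.77, 58.51 and 40.24 FPKM. In GW6471 against Vehicle only Acss2 of these 7 passed 1.5-fold, higher, where 3.28% of all genes were, and the median was 0.35.

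Among 5 measured acyl-CoA synthetases, which activate fatty acids for the members, 1 was higher with CLA and 1 lower, and GW6471 had 2 that were higher, against 7.3% higher with 4.95% lower for CLA and 3.28% higher for GW6471 over the whole table. Acsl1 stood at 34.92 FPKM in the Vehicle library, 74.1 with CLA, 59.83 with GW6471 and 34 with both agents. Acsl4, which prefers arachidonate, stood at 39.33, 51.64, 67.29 and 40.8 FPKM, and Acsbg1 at 49.75, 32.44, 40.25 and 53.48 FPKM. Acsl1 and Acsl4 were therefore highest under different agents.

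The peroxisomal steps that shorten very long polyunsaturates, 7 measured genes, held 3 that were higher in CLA and 1 that was higher in GW6471. None was lower in either, where 7.3% and 3.28% of all genes were higher and 4.95% and 2.1% lower. Abcd2, a peroxisomal transporter of very long chain acyl-CoA, stood at 1.53, 8.61, 4.81 and 1.44 FPKM in Vehicle, CLA, GW6471 and CLA+GW6471. Scp2, the sterol carrier and thiolase gene, stood at 11.02, 17.81, 13.88 and 10.36 FPKM.

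Of 7 measured genes that place acyl chains into phospholipids, 1 was higher in CLA and 2 in GW6471, none lower. For this list and the next pair, the shares over all genes were 7.3% higher in CLA and 3.28% higher in GW6471. Lpcat3, which puts polyunsaturates into phosphatidylcholine, stood at 47.68 FPKM in the Vehicle library, 70.42 with CLA, 73.81 with GW6471 and 58.06 with both agents, and Mboat2, a lysophospholipid acyltransferase, at 1.89, 4.06, 3.13 and 2.46 FPKM. Of 5 measured eicosanoid genes, Ptges, a prostaglandin E synthase, was the 1 gene higher in CLA, at 6.49 FPKM against 3.57 in Vehicle. Among 3 measured other desaturases and elongases, Elovl2, which acts on the products of Fads1, was the 1 gene higher in both single agents. Elovl2 stood at 0.8 FPKM in the Vehicle library, 1.55 with CLA, 1.4 with GW6471 and 0.56 with both agents. Its mean was 1.08 FPKM and passed the minimum of 1 only through the single-agent libraries, so the filter favoured this count. The medians of these 3 lists in CLA were 0.13, 0.05 and -0.33.

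The same lists were read in the comparisons of CLA+GW6471 with each single agent. Ptplad2 and Elovl2 are counted there too, with the limit given above. Over all genes, 3.88% were lower and 2.81% higher against GW6471, and 9.15% lower and 6.84% higher against CLA. Against GW6471, 2 genes each were lower among the elongation cycle, the fatty acid synthesis enzymes and the acyl-CoA synthetases, 1 each among the peroxisomal steps, the eicosanoid genes, the other desaturases and elongases and the regulators, and none among the electron donors and the phospholipid genes, and no gene of any list was higher. Against CLA, 4 fatty acid synthesis enzymes, 3 peroxisomal genes and 2 elongation cycle genes were lower, 1 gene was lower in each of the other lists, and 1 was higher among the electron donors, the acyl-CoA synthetases and the peroxisomal genes.

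**Figure D5:**
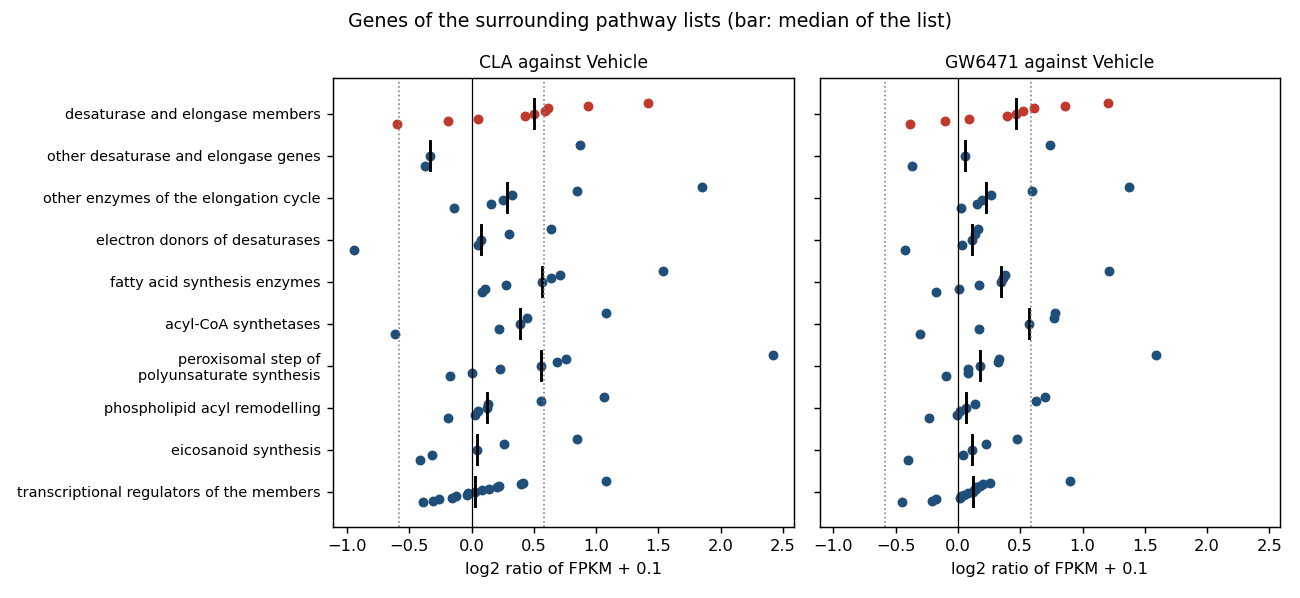
Log2 ratios of FPKM plus 0.1 in CLA against Vehicle and in GW6471 against Vehicle for genes of at least 1 mean FPKM in each pathway list, with 1 point per gene, a bar at the median of the list and dotted lines at 1.5-fold; both panels use the same Vehicle library. The members (red) have medians of 0.50 and 0.46, and the regulators of the members, in the lowest row, 0.03 and 0.12.

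The known transcriptional regulators of the members were read as transcripts. Of 15 measured, 1 was at least 1.5-fold higher in CLA and in GW6471 than in Vehicle, none was lower, and the median log2 ratio was 0.03 and 0.12. The share of all genes higher was 7.3% and 3.28%, and the share lower was 4.95% and 2.1%. The count higher in CLA thus lay near that over all genes. The gene that passed was Insig1, itself an SREBP target that retains SREBP in the endoplasmic reticulum, at 8.29 FPKM in the Vehicle library, 17.66 with CLA, 15.51 with GW6471 and 7.85 with both agents. Like Fads2, it was high with CLA and with GW6471 and low in the other pair of libraries.

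Srebf1, which encodes SREBP-1, stood at 28.92, 38.1, 32.63 and 29.07 FPKM in Vehicle, CLA, GW6471 and CLA+GW6471, and Srebf2, which encodes the cholesterol-regulating relative, at 73.41, 85.41, 87.62 and 70.45 FPKM. Neither reached 1.5-fold in these comparisons with Vehicle. Of the 18 regulators listed, 3 were under 1 FPKM in every library. Nr1h3, the LXRα gene, was between 0.6 and 0.96 FPKM, Mlxipl, the ChREBP gene, between 0.34 and 0.93 FPKM, and Ppara, the gene of the receptor GW6471 blocks, between 0.06 and 0.15 FPKM.

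The genes most like Fads2 over the 4 libraries were sought among 8188 genes of at least 5 mean FPKM, by the Euclidean distance between log2 profiles centred on each gene's mean. The nearest were Fgl1, a fibrinogen-like secreted protein, at a distance of 0.118, then Epas1 (HIF-2α) at 0.163, Pfkl, the liver phosphofructokinase, at 0.196, Rab3a, a small GTPase of secretion, at 0.2 and Idh1, the cytosolic NADP isocitrate dehydrogenase, at 0.250. Their CLA to Vehicle ratios lay between 2.39 and 2.56, near that of Fads2 because they were chosen by these same values. Scd2 was the nearest other member, at 0.357, and Fads3 the farthest, at 1.74. With 4 points a gene, the distances describe these libraries only.

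Markers of other cell types were read for the same libraries. The 6 cholangiocyte markers summed to 474, 657, 544 and 405 FPKM in Vehicle, CLA, GW6471 and CLA+GW6471. Most of each sum came from Spp1, at 372.04, 574.44, 452.82 and 301.97 FPKM, which set its order. Sox9 ran the other way, at 54.74, 34.72, 48.67 and 57.05 FPKM. The median log2 ratio of CLA to Vehicle over the 5 measured cholangiocyte markers was -0.02, so the list did not move as a whole. The 7 stellate cell or fibroblast markers summed to 1288, 1507, 1351 and 1149 FPKM, with 6 of them under 1 FPKM in every library. The listed macrophage markers gave 24.5, 37.0, 26.0 and 25.3 FPKM, nearly all from Cd68 at 23.43, 35.64, 24.87 and 24.37 FPKM. The listed adipocyte markers gave 12.2, 9.53, 8.09 and 9.5 FPKM. Of these, Cidec stood at 5.19, 1.69, 2.32 and 4.85 FPKM, while the other measured adipocyte marker was slightly higher in CLA than in Vehicle. The listed keratinocyte markers gave 4.36, 5.28, 3.74 and 4.36 FPKM. Endothelial markers stayed at or below 0.94 FPKM and lymphocyte markers at or below 0.16 FPKM in sum. The part of cell makeup in the ratios of the desaturases and elongases was not tested.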

How the data were processed

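RNA-seq of the 4 libraries (Illumina TruSeq) was read from 1 table of FPKM values. The FPKM values were deposited by the authors with 2 decimals, and the submitters' processing notes name BWA, Bowtie, Cufflinks and mm9, with no versions. No counts were used here, so no count test was run. Log2 ratios were taken of FPKM + 0.1, which understates ratios of low genes. A gene was called higher or lower from 1.5-fold with a mean of at least 1 FPKM over the 4 libraries, and the members were read against all 10355 such genes. Depth was estimated from the step that 1 read makes in FPKM times transcript length (GENCODE vM1, longest coding transcript), which was tested on simulated data, and gave 95% exact Clopper-Pearson counting intervals on estimated reads. Cufflinks assigns fractions of reads, so these intervals are approximate.

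The members and gene lists were chosen with earlier results of these data known. All members are named. Of the other lists, genes called in a comparison of a single agent with Vehicle were named, at most 3 per list, with 6 regulators (Srebf1, Srebf2, Insig1, Nr1h3, Mlxipl and Ppara) in any case, and the 5 profiles nearest to that of the member of widest range. A gene that this rule names is not reported here. Genes listed under older symbols were matched by Entrez ID. Alternatives were pseudocounts of 0.01 and 1, scaling to equal FPKM sums or by the median of ratios, other minimum levels and a 2-fold threshold. Python 3.11.15, pandas 2.3.3, numpy 2.4.6 and scipy 1.17.1 were used.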

Additional observations from a re-analysis of the deposited data

Results flagged for a closer look

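For 8 of the 9 members with a mean of at least 1 FPKM, the CLA diet went one way without GW6471 and the opposite way with it. The difference between these log2 ratios, with GW6471 minus without, was -0.92 for Scd1, -1.83 for Scd2, -1.11 for Fads1, -2.46 for Fads2, -0.77 for Elovl5 and -1.07 for Elovl6. It was 0.95 for Fads3 and 0.35 for Elovl1. With 1 library in each condition the difference was not tested, and 73.0% of all genes measured at that level also had opposite signs.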

How the results depend on the processing

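No log2 ratio of a member changed sign under the alternatives. Fads1 and Elovl6 lay just past 1.5-fold in CLA against Vehicle, so the members higher there fell from 4 to 2 with a pseudocount of 1 and to 2 with libraries scaled to the same FPKM sum, which left Scd2 and Fads2 in each case. At 2-fold the count was 1 higher and 0 lower in CLA against Vehicle, 1 higher in GW6471 against Vehicle, 1 lower in CLA+GW6471 against GW6471 and 1 lower in CLA+GW6471 against CLA. The members lower in CLA+GW6471 against CLA went from 3 to 2 with a pseudocount of 1, which lost Elovl6, and to 4 with scaling by the median of ratios, which added Fads1. The median log2 ratio of the members ranged over the alternatives from 0.47 to 0.52, 0.43 to 0.51, -0.49 to -0.38 and -0.39 to -0.34 in these 4 comparisons. No paired analysis was possible because each condition has 1 library, and no library could be left out. Depth limits Scd3 and Elovl7, whose counting intervals spanned 0 in CLA against Vehicle, and the calls of Fads1, Fads3 and Elovl6 there, of Scd1 in GW6471 against Vehicle and of Elovl6 in CLA+GW6471 against CLA, whose intervals spanned the 1.5-fold limit. The spread between mice is not known for any member.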
